A study of Oryza sativa with 20 samples.

Results

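Of the 6080 features on a rice cDNA microarray, 119 were higher in chilled than in control seedlings at 24 h and at none of the 4 earlier time points. They were chosen by their own measured ratios: each had a log2 ratio of chilled over control of 0.848 or more, which is 1.8-fold or more, in both biological replicates at 24 h, and did not reach that level in both replicates at 0.5, 2, 6 or 12 h. These 119 features are called the 24 h members below. They hold probes for genes of nitrogen and carbon metabolism (GLT2, SUS3, NADP-ME2, AMY1A), the cell wall (GLU2 and a cellulase gene), signalling and transcription (CDKE-1, MPK17-2, EREBP1), and protein and RNA processing (SHL2, DOHH-A). Their median ratio at 24 h was 2.39-fold, with a range from 1.83-fold to 8.02-fold over the means of 2 replicates.

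All seedlings belonged to the japonica rice (Oryza sativa) cultivar CT6748-8-CA-17, which tolerates chilling, and were at the S3 stage. Seedlings were kept in continuous light at 10°C for 0.5, 2, 6, 12 or 24 h, and each of these 5 groups was set against its own control at 29°C. Shoot RNA of 2 biological replicates per group was hybridised to 10 slides, on which each feature was spotted in duplicate, so that 4 spots stand behind each mean. The labels give Cy3 for the chilled RNA and Cy5 for the control RNA on all slides, with no exchange of the dyes, so a difference between the dyes cannot be told apart from one between the treatments. The cDNAs on the array came from a library of cold-stressed seedlings and a library of drought-stressed plants at booting, and the results apply to 1 cultivar.

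Rice is a plant of warm climates, and chilling slows its photosynthesis, membrane function and growth. The response of a seedling runs in stages: signalling proteins and transcription factors act first, and genes of metabolism, the cell wall and protein turnover tend to follow. A ratio within a slide holds no level of expression, so neither the tissue nor the abundance of a transcript can be read from these values, and fewer cells of a type cannot be told apart from less RNA per cell.

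Each column of the table held 53 to 194 missing values. The columns of replicate 2 at 2 h ran opposite to replicate 1 as deposited (Pearson r = -0.43 over features), although the labels name the same dyes, and their sign was turned. The labels therefore do not settle the direction of that 1 sample, and the study's own values at 2 h were not compared here. Every value given for replicate 2 at 2 h, and every count or share that uses it, has the turned sign unless stated. With the sign as deposited, 129 features met the rule, and these included all 119. The replicates of a time point had Pearson correlations over features of 0.07 at 0.5 h, 0.43 at 2 h after the turn, 0.34 at 6 h, 0.37 at 12 h and 0.39 at 24 h. The slides of 0.5 h were thus the least alike.

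At 24 h, 203 features, 3.37% of the 6027 measured in both replicates, were at the threshold in both, and 84 of them had also been so at an earlier time. The 119 others are 1.97% of those measured. The rule took these values to choose the members, so their height at 24 h is a description, and no test is used to support it. In the same way, 100 features were up only at 0.5 h, 57 only at 2 h, 52 only at 6 h and 75 only at 12 h. Up in both replicates were 3.04% of features at 0.5 h, 2.49% at 2 h, 2.39% at 6 h and 2.34% at 12 h.

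A single sample decided much of the membership. The count was 72 without replicate 2 of 12 h and 75 without replicate 2 of 0.5 h, since more features then counted as up earlier. It was 365 without replicate 1 of 24 h and 679 without replicate 2 of 24 h, since 1 sample then had to pass in place of both.

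**Figure D1:**
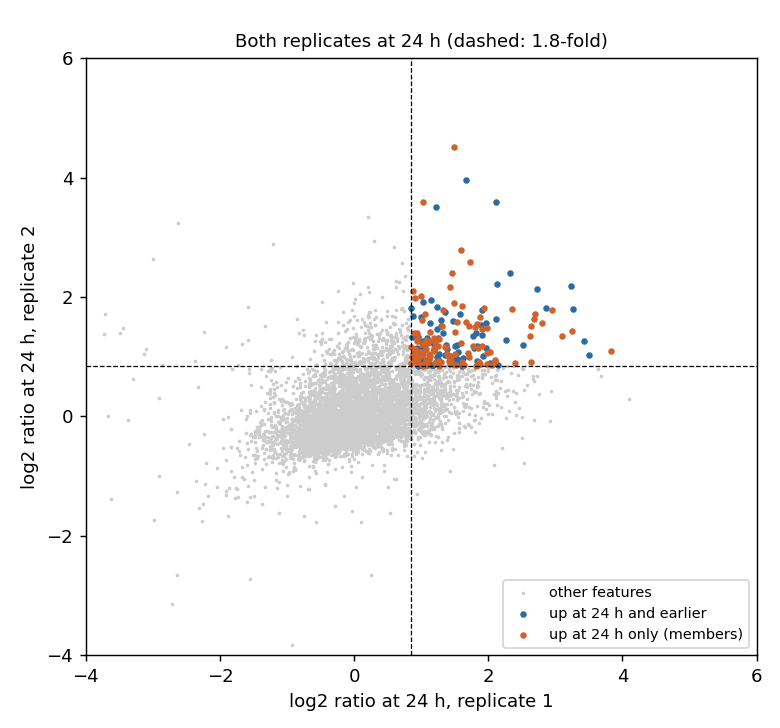
Log2 ratio of chilled over control at 24 h in replicate 1 (horizontal) and replicate 2 (vertical), 1 point per feature; dashed lines mark 1.8-fold, and 12 features outside the axes are not drawn. The 119 members (orange) and the 84 features that were also up earlier (blue) fill the same corner, and most points of both sets lie near the dashed lines.

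Before 24 h the members' medians lay above those of all features in each sample, that of replicate 2 at 2 h only with the turned sign. Their median log2 ratio was 0.68 and 0.34 in replicates 1 and 2 at 0.5 h, 0.43 and 0.48 at 2 h, 0.50 and 0.12 at 6 h, 0.68 and 0.56 at 12 h, and 1.33 and 1.13 at 24 h. The median of all features lay close to 0 in every sample. Averaged over replicates, the median member stood at 1.45-fold at 0.5 h, 1.41-fold at 2 h, 1.23-fold at 6 h, 1.57-fold at 12 h and 2.39-fold at 24 h. The rule bounds the earlier values from above only loosely and leaves them free below, and 92 of the members were above 0 in both replicates at 12 h. At 2 h it was 100 with the turned sign of replicate 2 and 9 with the deposited one, under which the median of replicate 2 was -0.48 and the median member at 2 h -0.0348 on the log2 scale. In replicate 1 of 2 h alone, 110 were above 0. Both replicates were below 0 in 6 members at 0.5 h, 5 at 2 h, 10 at 6 h and 4 at 12 h. The shares of all features above or below 0 in both replicates were not counted. These counts therefore describe the members and do not set them apart from other features.

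**Figure D2:**
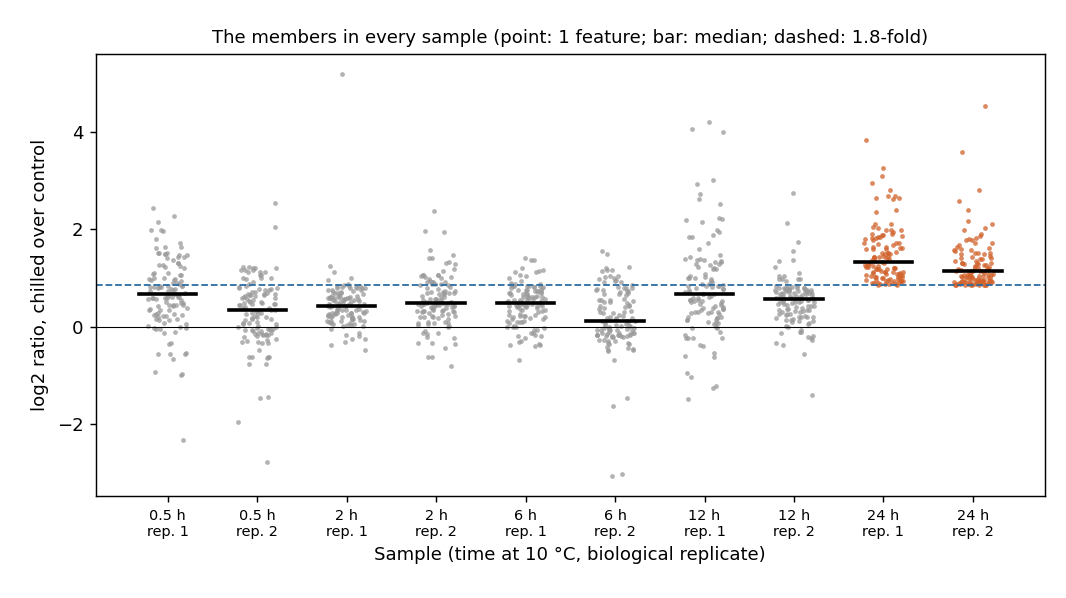
Log2 ratio of chilled over control of the 119 members in each of the 10 samples, 1 point per feature, with the median as a bar and 1.8-fold as a dashed line. The medians of the earlier samples lie between 0.12 and 0.68, and all points at 24 h lie above the dashed line because the rule required it.

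The name "higher only at 24 h" held for the rule but not for single samples. In 102 of the 119 members (85.7%), at least 1 of the 8 earlier samples reached 1.8-fold. It was 1 earlier sample in 41 members, 2 in 34, 3 in 20 and 4 in 7. With the sign of replicate 2 at 2 h as deposited, or without that sample, at least 1 earlier sample reached it in 100 members (84%), namely 1 in 51, 2 in 33, 3 in 14 and 4 in 2. These single high values were uneven between replicates: 44 members reached the threshold in replicate 1 of 0.5 h and 21 in replicate 2, 7 and 30 at 2 h, 16 and 17 at 6 h, and 47 and 15 at 12 h. The 30 of replicate 2 at 2 h were 0 with the deposited sign. Over all features, 12.3% and 10.5% did so at 0.5 h, 4.14% and 13.3% at 2 h, 6.23% and 11.8% at 6 h, and 11.7% and 6.58% at 12 h. The share of all features at the threshold in at least 1 earlier sample was not counted. The 85.7% of the members therefore has no background beside it. The mean of both replicates reached 1.8-fold in 25 members at 0.5 h, 17 at 2 h, 8 at 6 h and 39 at 12 h. The same counts over all features were not made. For 94 members the highest mean was that of 24 h, for 14 that of 12 h, for 7 that of 0.5 h, and for 2 each that of 2 h and 6 h.

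**Figure D3:**
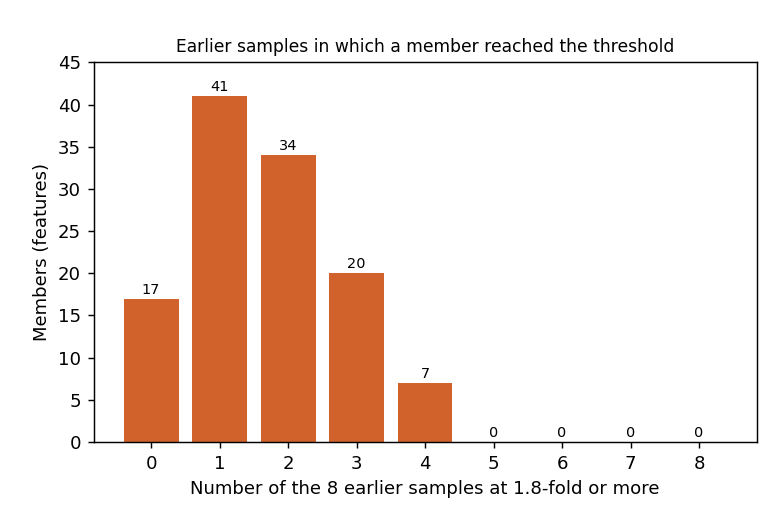
Number of members (vertical) by the number of the 8 earlier samples in which they reached 1.8-fold (horizontal). The bar at 0 holds 17 members, and the highest bar, at 1 earlier sample, holds 41.

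The 17 members under the threshold in all 8 earlier samples come closest to the name. In all 17 both values at 24 h lay above every earlier value, which their definition fixes in advance. Of all 119 members, 36 had both 24 h values above every earlier value. With the deposited sign of replicate 2 at 2 h these counts were 19 and 38. Among the sets up at 1 time only, the share that stayed under the threshold in all other samples was 14.3% at 24 h, 16% at 0.5 h, 1.75% at 2 h, 9.62% at 6 h and 12% at 12 h. Of the 17, LOC4324177, LOC4329576 and LOC4326316 are given as examples, chosen after their values were seen. Others of the 17 had closer replicates at 24 h, such as LOC4324053 (0.9375 and 0.9435). Feature 4938 had a wider gap, with at most 0.178 earlier and 3.092 (1 spot) and 1.344 at 24 h. LOC4329576 stood between -0.34 and 0.27 in the 8 earlier samples and at 1.69 and 1.06 at 24 h, a mean of 2.60-fold. LOC4324177 lay between -0.02 and 0.66 earlier and at 1.25 and 1.18 at 24 h. LOC4326316 lay between -0.29 and 0.71 earlier and at 1.02 and 1.21 at 24 h. The annotation used here gives these 3 genes no name. The 2 named genes among the 17 are an aldehyde dehydrogenase gene and a RING finger gene, described below.

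Of the 119 members, 84 matched 1 gene each, all different, and 35 (29.4%) matched no gene, against 29.8% of all features. A gene name or an annotation by the study was found for 17 members. At 12 h, 11 of these 17 were at the threshold in replicate 1 alone and 2 in replicate 2 alone. In 13 of the 17 the highest mean was that of 24 h, in 3 that of 12 h and in 1 that of 0.5 h. Without replicate 2 of 12 h, 6 of the 17 stayed members.

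**Figure D4:**
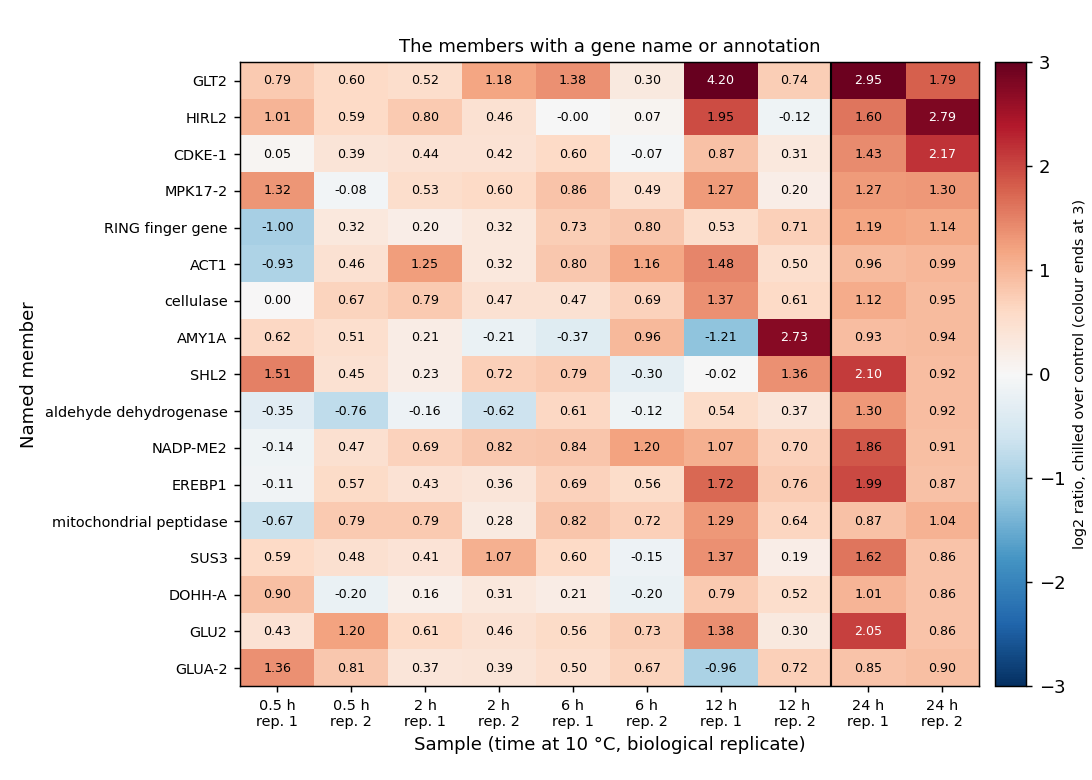
Log2 ratio of chilled over control of the 17 members with a gene name or annotation (rows, by the lower of their values at 24 h) in the 10 samples (columns); red is higher in chilled shoots, blue lower, and colour ends at 3. The 2 columns at the right, 24 h, are all red, and the highest value outside them is that of GLT2 in replicate 1 of 12 h, 4.20.

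GLT2 (LOC4339561), an NADH-dependent glutamate synthase that makes glutamate from glutamine, had the highest 24 h mean of the named members. Its log2 ratios in replicates 1 and 2 were 0.79 and 0.60 at 0.5 h, 0.52 and 1.18 at 2 h, 1.38 and 0.30 at 6 h, 4.20 and 0.74 at 12 h, and 2.95 and 1.79 at 24 h. The mean at 24 h was 2.37 ± 0.82 (SD, n = 2), or 5.16-fold, and was exceeded by replicate 1 of 12 h. Because replicate 2 of 12 h stayed at 0.74, just under the threshold, the gene counts as up at 24 h only. The array's other NADH-glutamate synthase gene, LOC4324398, was not a member: it stood at 1.495 and 0.99 at 12 h and at 1.90 and 1.36 at 24 h. Both genes of this enzyme were high at 24 h, and they differ in the 12 h call by 1 replicate of GLT2.

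SUS3 (LOC4343910) encodes a sucrose synthase, which cleaves sucrose into fructose and UDP-glucose. It stood at 0.59 and 0.48 at 0.5 h, 0.41 and 1.07 at 2 h, 0.60 and -0.15 at 6 h, 1.37 and 0.19 at 12 h, and 1.62 and 0.86 at 24 h. Its 24 h mean was 2.36-fold (1.24 ± 0.53 on the log2 scale), and its lower 24 h value was under the highest value of 2 h and of 12 h. NADP-ME2 (LOC4324717), a malic enzyme that turns malate into pyruvate and yields NADPH, rested at -0.14 and 0.47 at 0.5 h, then at 0.69 and 0.82 at 2 h, 0.84 and 1.199 at 6 h, 1.07 and 0.70 at 12 h, and 1.86 and 0.91 at 24 h. Its values lay under the threshold at 2 h and on both sides of it at 6 and 12 h, and at 24 h the mean was 2.61-fold (1.39 ± 0.67).

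AMY1A (LOC4330832), an alpha-amylase that breaks down starch in the germinating grain, gave 0.62 and 0.51 at 0.5 h, 0.21 and -0.21 at 2 h, -0.37 and 0.96 at 6 h, -1.21 and 2.73 at 12 h, and 0.93 and 0.94 at 24 h. The 24 h replicates were alike, at 1.91-fold, while those of 12 h lay on opposite sides of 0. The aldehyde dehydrogenase gene (LOC4349966), of a family that oxidises aldehydes to acids, was at -0.35 and -0.76 at 0.5 h, -0.16 and -0.62 at 2 h, 0.61 and -0.12 at 6 h, 0.54 and 0.37 at 12 h, and 1.30 and 0.92 at 24 h. It was below 0 in both replicates at the first 2 time points and above every earlier sample at 24 h, with a mean of 2.16-fold. All 4 of its 24 h spots lay at or above the threshold.

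A pair of members encode enzymes that cut beta-glucan chains such as cellulose, which plants use when walls are remodelled. GLU2 (LOC4334029) stood at 0.43 and 1.196 at 0.5 h, 0.61 and 0.46 at 2 h, 0.56 and 0.73 at 6 h, 1.38 and 0.30 at 12 h, and 2.05 and 0.86 at 24 h. The other, a cellulase gene (LOC4347685), stood at 0.00 and 0.67 at 0.5 h, 0.79 and 0.47 at 2 h, 0.47 and 0.69 at 6 h, 1.37 and 0.61 at 12 h, and 1.12 and 0.95 at 24 h. GLU2 reached 2.74-fold (1.46 ± 0.84) and the cellulase gene 2.05-fold (1.04 ± 0.12). Both were above 0 at every earlier time, and in both replicate 1 of 12 h passed the threshold. For the cellulase gene that 12 h value exceeded both values of 24 h.

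Among the signalling genes, CDKE-1 (LOC4349519), a cyclin-dependent kinase of the type found in the Mediator complex of transcription, was set apart from its earlier values at 24 h. It stood at 0.05 and 0.39 at 0.5 h, 0.44 and 0.42 at 2 h, 0.60 and -0.07 at 6 h, 0.87 and 0.31 at 12 h, and 1.43 and 2.17 at 24 h. Both 24 h values lay above all 8 earlier ones, and the mean was 3.47-fold (1.795 ± 0.52), although the 4 spots ranged from 0.725 to 3.61. MPK17-2 (LOC4328223), a mitogen-activated protein kinase, gave 1.32 and -0.08 at 0.5 h, 0.53 and 0.60 at 2 h, 0.86 and 0.49 at 6 h, 1.27 and 0.20 at 12 h, and 1.27 and 1.30 at 24 h. Its 24 h replicates were nearly the same, at 2.44-fold, but replicate 1 had been as high at 0.5 and 12 h.

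EREBP1 (LOC4330935) belongs to the AP2/ERF family of DNA-binding proteins, many of which act in ethylene and stress responses. It stood at -0.11 and 0.57 at 0.5 h, 0.43 and 0.36 at 2 h, 0.69 and 0.56 at 6 h, 1.72 and 0.76 at 12 h, and 1.99 and 0.87 at 24 h. Its 24 h mean was 2.69-fold (1.43 ± 0.79), and replicate 1 was the higher by about the same amount at 12 and 24 h. The study lists EREBP1 as induced, past its cut-off at 12 and at 24 h, and also followed it by qPCR. The study's annotation is not attached to this member feature. The RING finger gene (LOC4329759), of a class that holds many ubiquitin ligases, gave -0.998 and 0.32 at 0.5 h, 0.20 and 0.32 at 2 h, 0.73 and 0.80 at 6 h, 0.53 and 0.71 at 12 h, and 1.19 and 1.14 at 24 h. Its replicates and spots were close: the 24 h mean was 2.24-fold (1.16 ± 0.039), and the 4 spots lay between 1.07 and 1.29.

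SHL2 (LOC4323938) is an RNA-dependent RNA polymerase that acts in the production of small RNAs and is needed for the shoot meristem. It stood at 1.51 and 0.45 at 0.5 h, 0.23 and 0.72 at 2 h, and 0.79 and -0.30 at 6 h. It then gave -0.02 and 1.36 at 12 h, and 2.10 and 0.92 at 24 h. Its mean was 2.85-fold (1.51 ± 0.83), with a single high replicate at 0.5 and at 12 h. DOHH-A (LOC4351581), a deoxyhypusine hydroxylase that completes a modified residue of the translation factor eIF5A, gave 0.90 and -0.20 at 0.5 h, 0.16 and 0.31 at 2 h, 0.21 and -0.20 at 6 h, 0.79 and 0.52 at 12 h, and 1.01 and 0.86 at 24 h. Its 24 h mean was 1.91-fold. The gene of a mitochondrial processing peptidase subunit (LOC4327300), which removes the import signal of mitochondrial proteins, stood at -0.67 and 0.79 at 0.5 h, 0.79 and 0.28 at 2 h, 0.82 and 0.72 at 6 h, 1.29 and 0.64 at 12 h, and 0.87 and 1.04 at 24 h. At 1.94-fold its 24 h mean was about that of 12 h.

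HIRL2 (LOC4346849) belongs to the hypersensitive-induced reaction proteins, membrane proteins linked to cell death in defence. It stood at 1.01 and 0.59 at 0.5 h, 0.80 and 0.46 at 2 h, -0.00 and 0.07 at 6 h, 1.95 and -0.12 at 12 h, and 1.60 and 2.79 at 24 h. The mean was 4.58-fold (2.20 ± 0.85). Both 6 h values were near 0, and the 12 h replicates were far apart.

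A pair of members are known as a structural and a storage gene. ACT1 (LOC4333919), an actin of the cytoskeleton, gave -0.93 and 0.46 at 0.5 h, 1.25 and 0.32 at 2 h, 0.80 and 1.16 at 6 h, 1.48 and 0.50 at 12 h, and 0.96 and 0.99 at 24 h. In ACT1 a value above those of 24 h was found at 2, 6 and 12 h, each time in 1 replicate, and the 24 h mean was 1.96-fold. GLUA-2 (LOC4348563), a glutelin that stores protein in the endosperm, gave 1.36 and 0.81 at 0.5 h, 0.37 and 0.39 at 2 h, 0.50 and 0.67 at 6 h, -0.96 and 0.72 at 12 h, and 0.85 and 0.90 at 24 h. Its 0.5 h mean was above its 24 h mean, and its replicate 1 value at 24 h lay exactly at the threshold.

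Among all members, the highest by the lower of the 24 h replicates were mostly genes without a name. LOC4334682 combined a high value with low spread at earlier times: it stood between 0.22 and 0.98 in the 8 earlier samples and at 2.36 and 1.803 at 24 h, or 4.23-fold. LOC4340633 stood between -0.09 and 1.01 earlier and at 1.61 and 1.86 at 24 h, and feature 357, with no matched gene, between -0.13 and 0.83 earlier and at 1.67 and 1.58 at 24 h. For these 3 both values at 24 h lay above all earlier ones. Their duplicate spots at 24 h were less close. LOC4334682 had spots of 2.355 and 2.367 in replicate 1 but 1.088 and 2.518 in replicate 2. LOC4340633 had 2.155 and 1.057, then 1.171 and 2.544, and feature 357 had 2.221 and 1.123, then 2.191 and 0.977.

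Others of the top 10 were less steady. LOC4333997 gave 1.72 and 2.59 at 24 h, but -2.33 and -0.15 at 0.5 h and 5.18 and 0.47 at 2 h. LOC4343643 gave 1.88 and 1.67 at 24 h and -0.11 and -1.40 at 12 h. Its spots in replicate 1 of 24 h were 0.384 and 3.375. Features 5684, 5996 and 2175, which matched no gene, gave 1.94 and 1.82, 2.69 and 1.71, and 2.69 and 1.63. The replicate 1 spots of feature 5684 were 0.863 and 3.017. In feature 2175 the duplicate spots parted, with 4.76 and 0.615 in replicate 1 and 3.901 and -0.636 in replicate 2, so its height rests on 1 spot set. The highest mean of all members, 3.003 ± 2.15 for LOC4337046, rested on 1 spot at 7.95 beside 3 spots from 1.095 to 1.68.

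At the threshold itself, membership turned on values closer than the spread between replicates. The members just inside were LOC4348588 (1.82 and 0.85), feature 2557 (1.26 and 0.85) and GLUA-2 (0.85 and 0.90). Just outside lay LOC4343179 (0.997 and 0.85), feature 2177 (2.27 and 0.85) and LOC4330201 (1.25 and 0.85), which the study annotates as DNAJ-like, a class of protein-folding helpers. The median difference between the 24 h replicates was 0.34 in the members and 0.436 in all features. The rule required both values of a member to pass, so its smaller difference is not a measure of precision.

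Duplicate spots of the members differed more than those of all features. The rule chose members by the mean of these spots, so this difference is not independent of the choice. The median difference between the spots of a slide was 0.405 in replicate 1 and 0.512 in replicate 2 for the members, against 0.251 and 0.175 for all features. All 4 spots of 24 h reached the threshold in 40 members, among them the RING finger, aldehyde dehydrogenase, ACT1 and AMY1A features, and in 5 members at least 1 spot lay below 0. Both replicates were 2-fold or more in 63 members.

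Other cDNAs of the same genes give a reading that the rule did not use. For 13 of the member genes the array carried 15 further features. None of these 15 was at the threshold in both replicates at 24 h (beside 3.37% of all features), 6 were above 0 in both, and 3 were below 0 in both. Their median 24 h log2 ratio was 0.25, with 0.33 in replicate 1 and 0.087 in replicate 2, against 1.43 for the member features of the same genes and 0.03 for all features. The second EREBP1 feature was the nearest to its member, at 1.43 and 0.67 at 24 h (mean 1.05) after means of -0.46 at 0.5 h, -0.59 at 2 h, 0.47 at 6 h and 0.86 at 12 h. The second LOC4333997 feature gave 0.11 and 1.63.

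The second GLU2 feature went the other way, at -0.70 and -0.10 at 24 h, and the second LOC4337046 feature gave -0.15 and 0.28. LOC4326316, steady in its member feature, had 3 others with means of 0.39, 0.17 and -0.30. The 16 further features of genes whose feature was up at 24 h and earlier had a median of 0.33, and 0 of them were up at 24 h. Across the array, 2 features of 1 gene were only weakly alike at 24 h, with a Pearson correlation of 0.093 and a Spearman correlation of 0.117 over 333 pairs from 294 genes, a description over features that share slides. Which cDNA of a pair reports its gene was not tested.

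**Figure D5:**
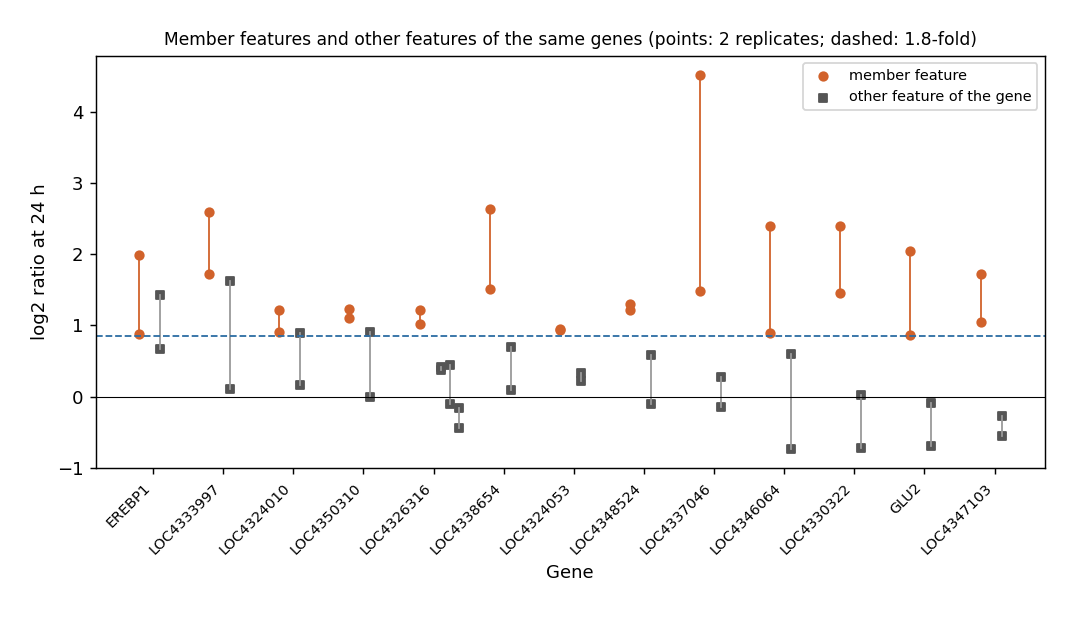
Log2 ratio of chilled over control at 24 h of the member feature (orange circles) and of the other features (grey squares) of 13 genes, with both replicates joined by a line and 1.8-fold dashed. No grey pair lies wholly above the dashed line, and EREBP1 and LOC4333997 have the highest grey points.

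The members were also set beside 25 lists of genes, drawn up as patterns over gene names and annotations. A list call is an adjusted p under 0.05 by limma, which 1.23% of 5926 features passed as higher at 24 h and 0.236% as lower. These calls depend on single samples: the 73 features called higher were 5 with the deposited sign of replicate 2 at 2 h, 10 without replicate 1 and 10 without replicate 2 of 2 h, 5 without replicate 1 of 24 h, 38 without replicate 2 of 24 h, 46 without replicate 2 of 6 h, and 194 and 197 without replicate 1 and 2 of 0.5 h. Of the 8 list features called and named here, 1 (PIP5K) stayed called with the deposited sign, without 1 or the other replicate of 2 h and without replicate 2 of 24 h, and 0 without replicate 1 of 24 h. Members were 1.97% of the features measured in both replicates at 24 h. Counts of members per list were not tested against that share. The kinases and phosphatases held 2 members among 42 features, CDKE-1 and MPK17-2, with a list median of 0.19. In that list 1 feature was called higher (CDKE-1) and 0 lower. CDKE-1 is a member, so its call rests on the 24 h values that chose it and adds no support. The sucrose and starch list held 1 member, SUS3, of 7 features, with a median of 0.47. Its 1 call was the sucrose phosphate synthase gene OsSPS3F, at 2.82 (limma, adjusted p = 0.0336), so the called gene of sugar synthesis was not the member. The cytoskeleton list held ACT1 among 11 features (median 0.40), with the alpha-tubulin gene TubA called at 1.55 (limma, adjusted p = 0.0336). EREBP1 was 1 of 26 features of the hormone list (median 0.20) and the RING finger gene 1 of 20 of the ubiquitin and proteasome list (median 0.11), both with 0 calls.

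No member fell in the other lists; the patterns did not match GLT2, NADP-ME2, AMY1A, GLU2 or the cellulase gene. The list of amino acids and nitrogen had a median of 0.37 over 6 features and 1 call, the NADH-glutamate synthase gene LOC4324398, at 1.63 (limma, adjusted p = 0.0235). Chaperones (median 0.75 over 13 features), lipids (0.66 over 5), vesicle traffic (0.62 over 6) and glycolysis and fermentation (0.55 over 17) had 0 calls. The transporter list (0.36 over 15) had 1, PIP5K at 2.18 (limma, adjusted p = 0.00598), a lipid kinase that the pattern took in by its letters. The redox list (0.04 over 16) had APX2 at -1.37 and PRX74 at -1.92 called lower, and the phenylpropanoid list (-0.32 over 8) had 4CL3 at -1.58. The medians of ribosomal proteins (0.18), translation factors (0.28), the cold, dehydration and ABA list (0.26), transcription factors (-0.00), cell wall (0.31), defence (0.24), the clock (0.33), RNA binding (0.31) and the single chromatin feature (1.15) came with 0 calls, beside 0.03 for all features.

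The lists for other cell types held little. Leaf photosynthesis had 3 features with a median ratio of -0.58 and 0 calls, the root list had 0 features, and the 10 features that the pollen patterns matched were all zinc finger genes that share letters with a pollen gene name, so that list is void. Their part in the values of the members was not tested.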

How the data were processed

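The deposited values are log2 ratios of chilled (Cy3, 532 nm) over control (Cy5, 635 nm) medians, from which the authors had subtracted background; they took the ratios in Acuity and describe a normalization to a mean ratio of 1. The mean ratio of a deposited column was 1.09 to 1.50, and 13.8 and 14.5 for replicate 2 of 2 h, so that step is not visible in the values. Intensities were not used here; precision is limited by how many arrays there are. Replicates are described as independent biological replicates.

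Both columns of replicate 2 at 2 h were multiplied by -1, each of the 20 columns was centred on its median, and duplicate spots were averaged (1 spot sufficed). The second spot set of replicate 2 at 6 h, whose source name gives another time, was kept at 6 h as titled. The threshold was the study's fold of 1.8. Members, gene lists and alternatives were chosen with earlier results of these data known.

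Genes were named from the platform's gene identifiers, all 4172 of which matched rice RefSeq (ASM3414082v1); 97 features with several genes were not named. Annotations without a symbol are the study's. Named are members with a name or annotation (up to 30), the 10 with the highest lower 24 h value, the 3 features on either side of the threshold, list members, and genes with a further feature; the other genes in the text were chosen after their values were seen. For 5926 features with all 10 samples, limma 3.58.1 (R 4.3.3) estimated a mean per time point, with Benjamini-Hochberg adjustment at 0.05; the script was tested on simulated data. Sequences of cDNAs, promoters and proteins were not analysed here.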

Additional observations from a re-analysis of the deposited data

Results flagged for a closer look

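For 7 of the features named in the text, both replicates of an earlier time lay below 0 while both at 24 h lay above 0. The aldehyde dehydrogenase gene LOC4349966 was higher at 24 h than at 0.5 h by 1.66 and than at 2 h by 1.502 on the log2 scale. LOC4329576 was higher at 24 h than at 0.5 h by 1.67 and than at 6 h by 1.485. LOC4333997 was higher at 24 h than at 0.5 h by 3.39, LOC4343643 was higher at 24 h than at 12 h by 2.53, and feature 357 was higher at 24 h than at 6 h by 1.73. LOC4330201, just outside the threshold, was higher at 24 h than at 0.5 h by 1.83 and than at 2 h by 1.39. The second EREBP1 feature, not used by the rule, was higher at 24 h than at 0.5 h by 1.51 and than at 2 h by 1.64. For the members among them the rule required the high values at 24 h, so only the earlier values below 0 were free. The share of all features with this pattern was not counted, and these differences were not tested. With 2 replicates per time point, no sample could be checked as standing apart from its group.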

How the results depend on the processing

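The number of members was 119, and 112 to 141 under the other centring, sign, spot, averaging and scaling settings, 168 at 1.5-fold and 86 with only features measured in all 20 columns. The features changed more than the count: of the 119, 63 remained with spot set 1, 61 with spot set 2, 73 with scaled columns, 89 without centring, 112 with linear averaging and 57 at 1.5-fold. The number was 77 at 2-fold, and 63 of these were among the 119. With the rule on the mean of both replicates, which the study also averaged, it was 201, and 54 of these were among the 119. It was 60 with the rule in all 4 spots, 40 of them among the 119, and 17 with no earlier replicate at the threshold. Leaving out 1 replicate at a time gave 72 to 679 members; an arm of 1 sample then has no spread of its own.

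The members' median log2 ratio at 2 h, 0.50, was 0.80 without centring, 0.45 with spot set 2, 0.43 with complete features, 0.54 with scaled columns and -0.0348 with the deposited sign of replicate 2, a reversal that follows from the turned sign; leaving out 1 replicate gave 0.43 to 0.50. At 12 h it was 0.65, 0.74 without centring, and 0.56 to 0.675 leaving out 1 replicate. Feature 2175 went from 2.16 at 24 h to -0.0105 with spot set 2; leaving out 1 replicate gave -0.10 to 0.45 for the second of the other LOC4326316 features and -0.15 to 0.28 for the other LOC4337046 feature. Of 476 alternative values of 49 named features, these 3 reversed, 47 others moved by more than the SD of the replicates and 426 stayed within it.

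By limma, 73 features were called higher and 14 lower at 24 h. Without centring 116 were higher; with the deposited sign 5 and 1; with spot set 1 alone 41 and 9; with spot set 2 alone 39 higher; with spots kept apart and the sample as a random block 113 and 93. Leaving out 1 replicate gave 5 to 197 higher and 0 to 40 lower, with a lone sample assumed to vary like the others; unadjusted p under 0.05 was reached by 790 and 337 with all samples. Members in a gene list were 6, and 11 at 1.5-fold.

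Whether replicate numbers pair samples across times is unclear. Over 10 pairs of time points the correlation of the replicate differences ran from -0.32 to 0.40, with 5 above 0.1, and these 5 were among the 6 pairs without 2 h. Since not every pair was above 0.1, the numbers were not used as a pairing. With the replicate number as a block, 73 features were higher and 16 lower, and 5 of the 8 list features stayed called. The promoter alternatives were not run. With 2 replicates and no intensities, signal over background is unknown.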

Other observations

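Members lay side by side on the array's feature list more often than other features: 12 of 119 members (10.1%) had a member at a neighbouring feature number, against 222 of the 5961 other features (3.72%). Whether neighbouring numbers share a spotting position was not tested. Among the 84 member genes with a position in the annotation, 1 pair had at most 5 genes between them: LOC4333997 and LOC4333998, with 1 gene between. The same count was not made for all genes of the array, so this pair is a description only. LOC4333998, one of the 17 members under the threshold in all earlier samples, stood at 0.81 and -1.45 at 0.5 h and at 1.21 and 0.89 at 24 h, a mean of 2.07-fold.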
